A study of Mus musculus with 9 samples.

Results

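Stellate cells lie between the hepatocytes and the sinusoidal endothelium of the liver, where they store vitamin A as retinyl esters. In injured liver they turn into contractile, matrix-producing cells and become the main source of the fibrillar collagens of scar tissue. The matrix itself is built from collagen fibrils, a basement membrane network, elastic fibres and proteoglycans, is joined by lysyl oxidases, and is degraded by metalloproteinases that TIMP proteins inhibit. Transforming growth factor beta (TGF-beta) is the best known signal for its production. The 42 genes described here encode these proteins together with markers and receptors of stellate cells. They were chosen by symbol and make up 42 of the 27179 genes in the deposited table. Of these, 40 averaged 10 normalized counts or more over the libraries and were tested, among 12993 genes tested in all.

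The liver samples came from 9 wild-type C57BL/6J mice injected at 17 months of age and killed 3 weeks later. All mice, controls included, received 3e+11 vector genomes of AAV8 carrying the small nuclease saCas9 under the hepatocyte promoter TBG, together with a U6-driven guide RNA. The guide was directed at the Rosa26 locus in 4 control mice (sgRosa26) and at Ccnd1, the gene of cyclin D1, in 5 mice (sgCcnd1). According to the series title, the question was whether loss of Ccnd1 in hepatocytes lowers inflammatory signalling in old mice. TBG drives expression in hepatocytes, not in stellate cells or endothelium. Poly(A) RNA of a piece of whole lobe was sequenced, and in such bulk samples fewer cells of a type and less RNA per cell cannot be told apart.

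The control libraries are named A to D and the sgCcnd1 libraries E to I in the column order of the table, and each is 1 animal. They held 10840595 to 20176201 reads assigned to genes. Ccnd1, the check of the labels, was at 683.6, 800.3, 625.1 and 867.3 normalized counts in A to D and 428.4, 347.3, 370.1, 338.9 and 325.0 in E to I, so that 5 of 5 sgCcnd1 libraries lay below all controls (log2 fold change -1.03, SE 0.11, limma adjusted p = 0.0116). It was the 1 gene of 12993 that limma called. That call was lost without B, D, F, H or I (limma adjusted p from 0.0558 to 0.0857 for the Ccnd1 check of the labels). The Y-linked gene Ddx3y was at 2 normalized counts in library H and at 809.9 to 1153.8 in the others; member counts without H are given below. Hepatocyte markers were abundant in every library, and the stellate cell genes Lrat, Reln and Hgf were present in every library as well.

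For the 40 genes as a whole, values were lower in sgCcnd1 for 38 and higher for 2, but no single gene passed the test. The median log2 fold change was -0.35, against 0.01 over all genes tested, and the range was -0.77 (Col5a2) to 0.11 (Fn1). The smallest limma adjusted p was 0.31, for Vim, so 0 of 40 were called, as 0.0077% of all genes were. The edgeR model also called 0, with a smallest adjusted p of 0.295, and DESeq2 called 0, with a smallest adjusted p of 0.0984. DESeq2 called 0.549% of all genes as lower and 0.267% as higher. At an unadjusted limma p under 0.05, 11 of the 40 genes (27.5%) were lower, beside 5.74% of all genes tested, and 0 were higher, beside 5.22%. By the exact two-sided permutation test 2 of these 11, Vim and Pdgfrb, had a p under 0.05, and the other 9 had a p from 0.0556 to 0.111. The share of all genes under 0.05 by the permutation test was not computed, so that count of 2 has no background beside it. A log2 fold change below 0 was found for 95% of the 40 genes and for 47.1% of all genes tested. The groups overlapped in 40 of 40 genes, where 1.97% of all genes tested lay wholly lower in sgCcnd1 and 1.92% wholly higher (3.89% together). These shares are descriptions, since the genes share regulation and are not independent of each other.

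**Figure D1:**
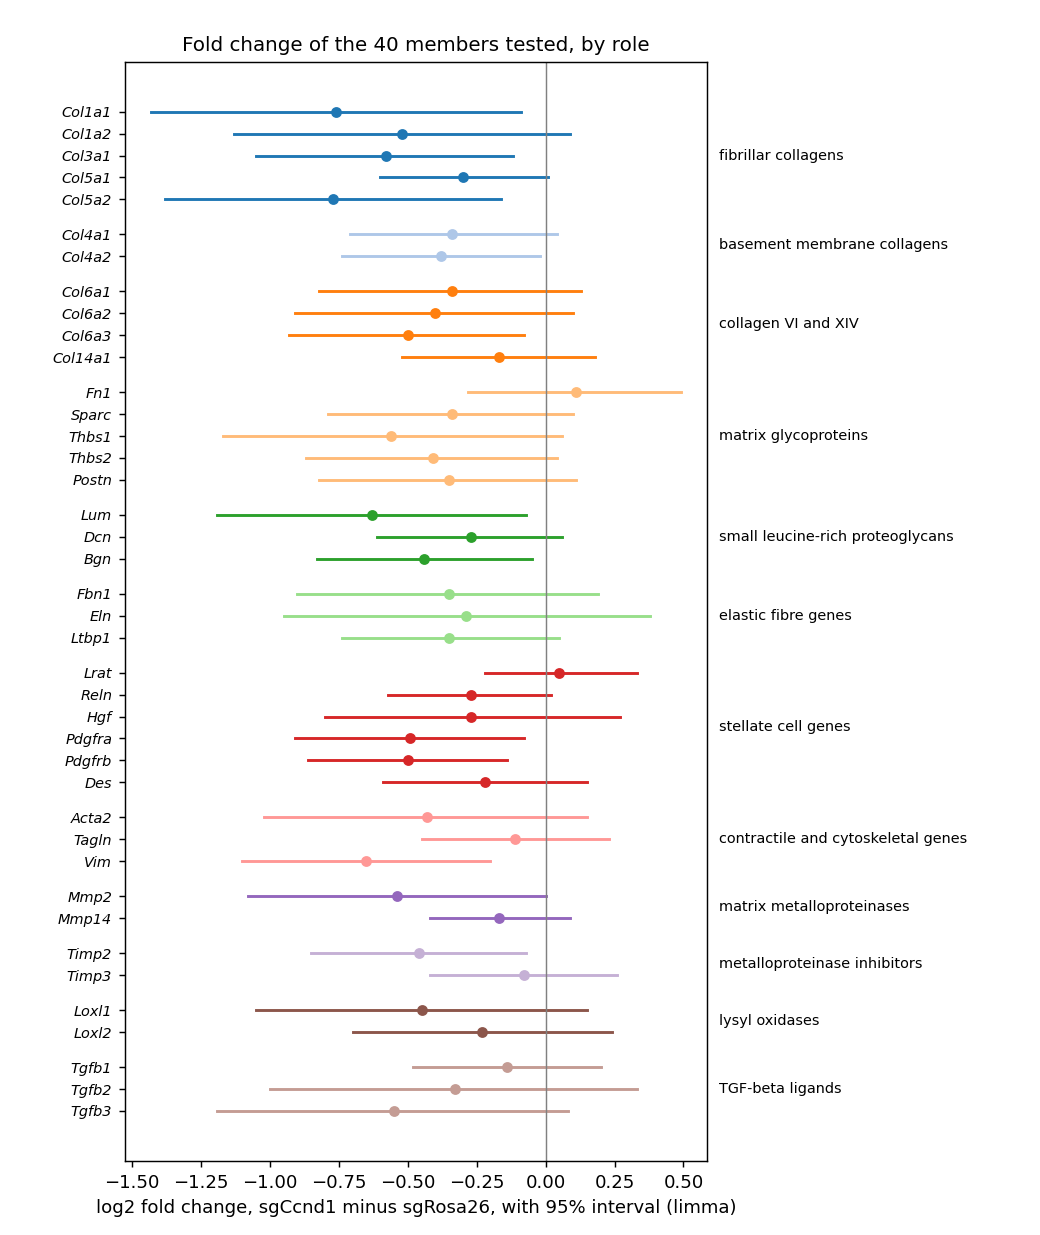
Log2 fold change (sgCcnd1 minus sgRosa26, x axis) of the 40 genes tested, grouped by role, as points with 95% intervals from limma as lines. Of the points, 38 lie left of 0, and those of Fn1 and Lrat lie right of it.

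The lower mean did not come evenly from the animals. In each library the median over the 40 genes was taken of the log2 level relative to that gene's mean over the 9 libraries. It was 0.30, 0.54 and 0.19 in controls A, B and C but -0.25 in control D. In sgCcnd1 it was -0.25, -0.36, -0.33 and -0.04 in libraries F, G, H and I but 0.24 in library E. Over all genes tested these medians were between 0.00 and 0.01. Control B held the highest of the 9 values for 27 of 40 genes (13.9% of all genes), and D the lowest control value for 36 of 40 (21.7% of all genes). Within sgCcnd1, E was highest for 33 of 40 (18.6% of all genes). In 39 of the 40 genes library E lay above the lowest control, which was D for 36 of 40. No share of all genes was taken for that count of 39. Ccnd1 was also highest in E among the sgCcnd1 libraries and highest in D among the controls.

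**Figure D2:**
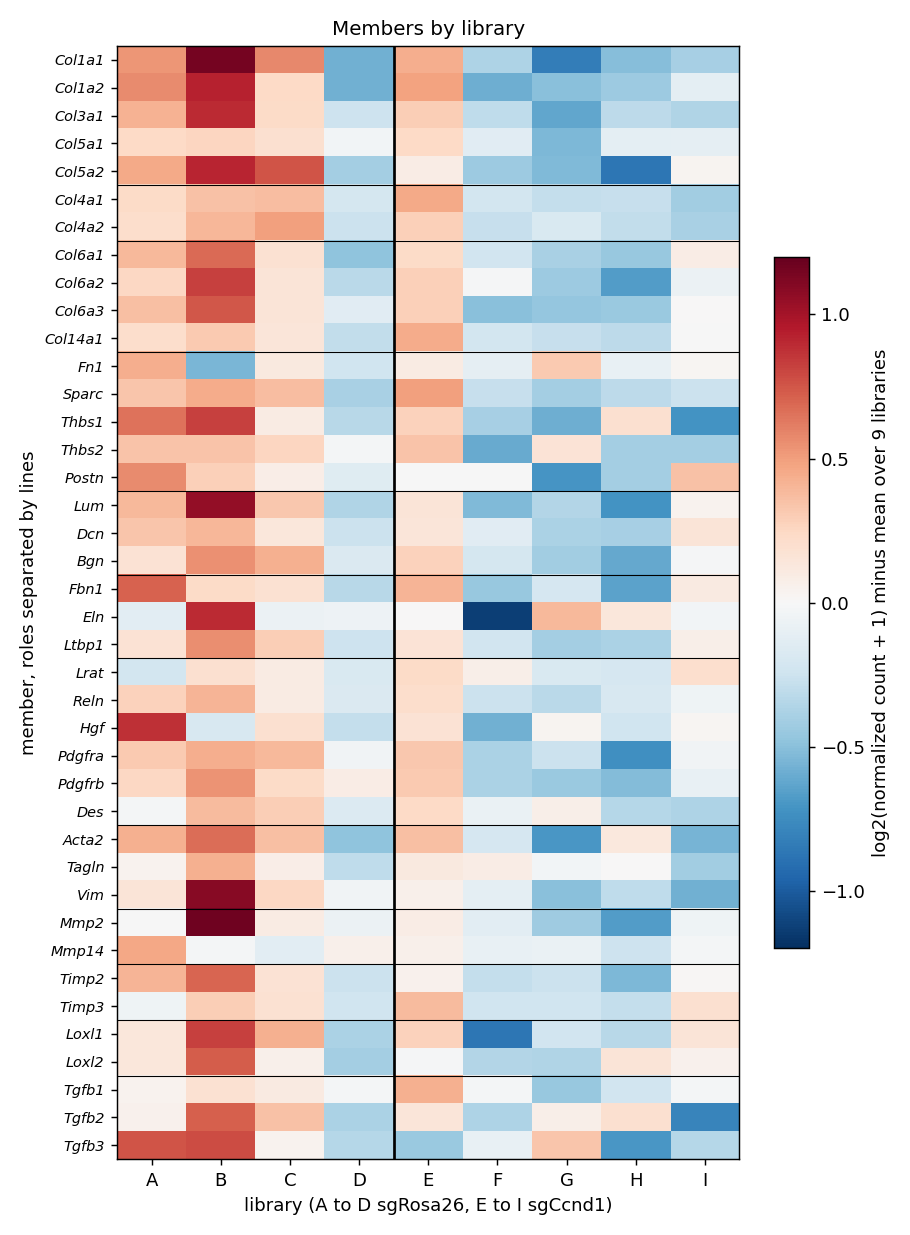
Log2(normalized count + 1) of each of the 40 genes tested (rows, roles separated by lines) minus its mean over the 9 libraries (columns; controls left of the thick line, sgCcnd1 right of it), red for higher and blue for lower. Column B is red for most genes, column D is blue within the controls, and column E is red within sgCcnd1.

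Single libraries therefore moved the counts. Without D, 25 of 40 genes were lower at an unadjusted limma p under 0.05 (6.37% of all genes), and without E 22 were (7.13%). Without B there were 2 (4.11%), without C 5 (5.37%), without A 7 (5.71%) and without H 5 (4.29%). The count was 8 without F (5.41%), 8 without G (5.15%) and 10 without I (5.11%). With any 1 library left out the median stayed between -0.53 (without D) and -0.27 (without B), and 0 of 40 genes passed after adjustment (smallest limma adjusted p 0.128, without E). The log2 fold change of 25 of the 40 genes moved by over 1.5 times in 1 direction or the other when some library was left out, and that of 15 did not.

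**Figure D3:**
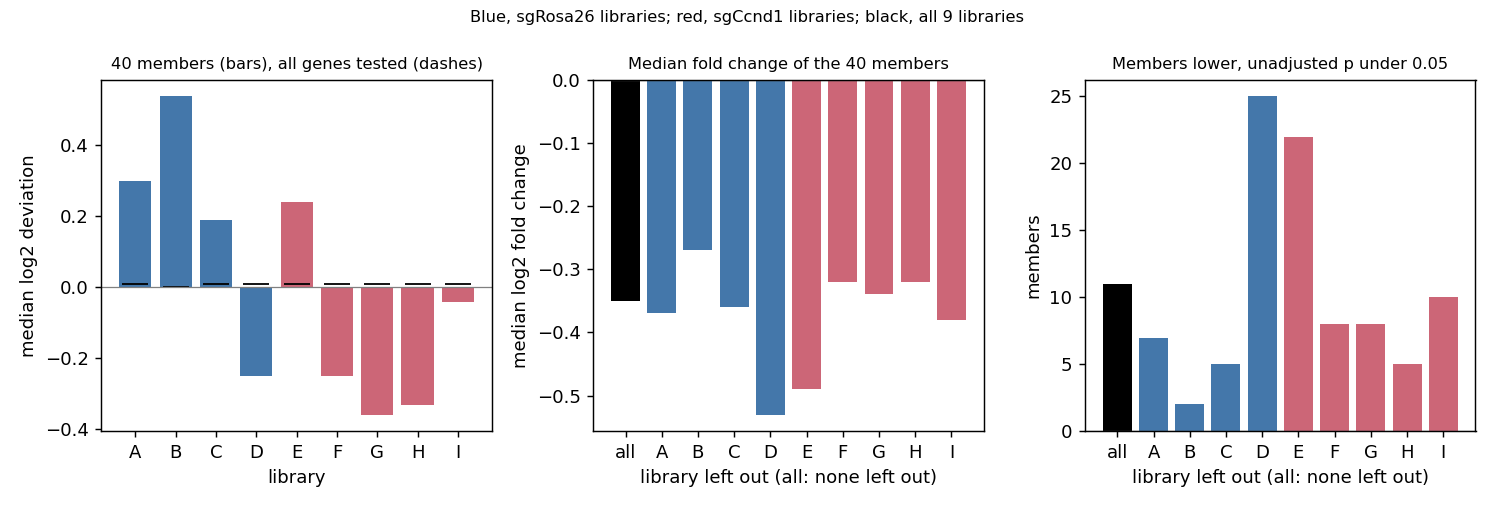
Left, the median log2 deviation of the 40 genes in each library (bars) and that of all genes tested (dashes); middle, the median log2 fold change with each library left out; right, the number of the 40 genes lower at an unadjusted p under 0.05 with each library left out. Blue marks sgRosa26, red sgCcnd1 and black all 9 libraries; the count runs from 2 without B to 25 without D.

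Promoters of 5 of the genes are shown: 2 fibrillar collagens, the basement membrane pair Col4a1 and Col4a2, which start head to head, and Lrat, a gene of the vitamin A store of stellate cells. None of the 5 was called. The sequences are from RefSeq on GRCm38.p6, the build that the submitters' processing notes name as GRCm38. They run from 250 bases before to 50 after the transcription start, 5′ to 3′ on the strand of the gene. Windows for 27 of the 42 genes were matched, 31 in all. Capitals mark 4 short motifs read on either strand. They are CCAAT, known to be bound by NF-Y, the TATA box written as TATAAA, the Sp1 motif GGGCGG, and the SMAD motif CAGAC. Col1a2 lies on the plus strand (chr6:4505368-4505667), Col3a1 on the plus strand (chr1:45311288-45311587), Col4a1 on the minus strand (chr8:11312777-11313076), Col4a2 on the plus strand (chr8:11312555-11312854) and Lrat on the minus strand (chr3:82903925-82904224).
Col1a2: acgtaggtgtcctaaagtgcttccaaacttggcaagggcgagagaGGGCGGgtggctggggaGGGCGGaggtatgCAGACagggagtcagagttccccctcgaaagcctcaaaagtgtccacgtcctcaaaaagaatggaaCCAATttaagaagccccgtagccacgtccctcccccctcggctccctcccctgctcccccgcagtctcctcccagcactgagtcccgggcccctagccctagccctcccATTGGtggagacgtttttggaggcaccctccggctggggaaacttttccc
Col3a1: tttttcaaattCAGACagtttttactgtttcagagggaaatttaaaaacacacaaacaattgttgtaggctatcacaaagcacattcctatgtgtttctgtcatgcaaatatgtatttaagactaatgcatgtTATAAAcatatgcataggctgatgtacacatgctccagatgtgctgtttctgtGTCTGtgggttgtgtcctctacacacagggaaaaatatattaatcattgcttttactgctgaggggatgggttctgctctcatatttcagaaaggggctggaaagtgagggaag
Col4a1: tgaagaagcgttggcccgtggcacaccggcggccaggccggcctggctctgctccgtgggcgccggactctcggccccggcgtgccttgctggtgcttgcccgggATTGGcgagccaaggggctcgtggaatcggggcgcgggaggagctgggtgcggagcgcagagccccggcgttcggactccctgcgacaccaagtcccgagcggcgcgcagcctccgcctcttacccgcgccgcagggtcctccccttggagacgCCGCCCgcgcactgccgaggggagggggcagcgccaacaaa
Col4a2: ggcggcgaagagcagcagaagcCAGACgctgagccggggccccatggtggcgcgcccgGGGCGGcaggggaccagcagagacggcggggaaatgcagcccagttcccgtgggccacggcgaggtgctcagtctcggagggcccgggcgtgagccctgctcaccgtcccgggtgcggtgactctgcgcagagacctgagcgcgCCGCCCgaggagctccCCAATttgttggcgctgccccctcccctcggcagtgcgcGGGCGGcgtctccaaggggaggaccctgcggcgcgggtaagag
Lrat: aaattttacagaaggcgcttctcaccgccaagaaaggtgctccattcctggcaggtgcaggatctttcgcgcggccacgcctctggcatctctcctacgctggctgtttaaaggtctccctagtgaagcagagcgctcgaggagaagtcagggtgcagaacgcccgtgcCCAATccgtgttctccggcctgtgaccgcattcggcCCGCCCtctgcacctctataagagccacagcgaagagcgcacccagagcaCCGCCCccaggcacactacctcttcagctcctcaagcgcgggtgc

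The Col1a2 window held CCAAT 109 bases upstream of the start and, on the other strand, at the start itself, with GGGCGG 205 and 188 bases upstream and CAGAC 175 bases upstream. Col3a1, with 37.7% G and C, held TATAAA 117 bases upstream and CAGAC 239 and 64 bases upstream, and neither CCAAT nor GGGCGG. The windows of Col4a1 and Col4a2 (74% and 73.7% G and C) run in opposite directions, with starts 21 bases apart, and share 78 bases. The start used for Col4a1 was 11312826, whereas its whole gene model runs further, to 11312889. The same GGGCGG at 11312812 to 11312817 of chromosome 8 lies in both windows. Both held CCAAT, and Col4a2 held CAGAC 228 bases upstream. Lrat held CCAAT 81 bases upstream and GGGCGG 45 bases upstream and 6 bases downstream, and no CAGAC. Over all 32851 windows, CCAAT was found in 37.4%, TATAAA in 13.6%, GGGCGG in 35.7% and CAGAC in 49.6%. Over the 31 windows of the genes described here the shares were 41.9%, 16.1%, 51.6% and 54.8%. The motifs do not overlap one another in the windows shown, and a match is a description of letters and not of binding.

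The 5 fibrillar collagen genes among the members, which form the load-bearing fibres of scar tissue, had the lowest median of all roles, at -0.58 on the log2 scale. Outside the 42 genes, the fibrillar chains Col5a3 and Col27a1 were near no difference. Whether they differ from the 5 member genes was not tested. Col5a3, another chain of type V, had means of 1472.7 and 1453.9 normalized counts in sgRosa26 and sgCcnd1 (log2 fold change 0.02, limma adjusted p = 0.969; -0.19 without A). Col27a1, a fibrillar chain named after its values were seen, had means of 942.8 and 929.3 (log2 fold change -0.00, limma adjusted p = 0.994; -0.17 without A). All 5 member genes were lower in sgCcnd1, 3 of them at an unadjusted p under 0.05, and none was called. Col1a1, the first chain of type I collagen, was at 258.2, 397.9, 266.6 and 119.5 normalized counts in sgRosa26 and 241.7, 137.9, 99.9, 124.9 and 134.8 in sgCcnd1. Controls A, B and C were above every sgCcnd1 library, while D was below all but G. The mean was 260.5 ± 113.8 in sgRosa26 (SD, n = 4) and 147.8 ± 54.5 in sgCcnd1 (SD, n = 5). On the log2 scale the difference was -0.76 (95% interval -1.43 to -0.09, limma adjusted p = 0.399). The highest control was 3.33 times the lowest, a wider gap than the 1.76 times between the group means. Col1a2, its partner chain, was at 285.3, 365.5, 227.1 and 128.2 normalized counts in sgRosa26 and 269.1, 128.0, 135.1, 141.9 and 177.4 in sgCcnd1. D and E again stood apart from their groups, and its log2 fold change was -0.52 (limma adjusted p = 0.522; -0.31 without B and -0.81 without D).

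Col3a1, the chain of type III collagen, was at 563.1, 781.0, 494.6 and 353.5 normalized counts in sgRosa26 and 515.3, 341.1, 273.1, 337.9 and 327.8 in sgCcnd1. Here 4 of 5 sgCcnd1 libraries lay below all controls, and E lay among them (log2 fold change -0.58, limma adjusted p = 0.354). Its log2 fold change was -0.72 without E and -0.40 without B. Col5a2, a chain of the type V collagen that starts fibrils, was at 59, 81.5, 73.2 and 32 normalized counts in sgRosa26 and 45.7, 31.3, 29.4, 23 and 44 in sgCcnd1, lower by the largest log2 fold change of the 40 genes (-0.77, SE 0.28, limma adjusted p = 0.352). Col1a1, at -0.76, was lower than Col5a2 without D (-1.09 against -1.05), without E (-0.95 against -0.88) or without H (-0.71 against -0.64). Without B it was not (-0.51 against -0.61). For Col5a2, E and I were above the lowest control D and below the other 3. Col5a1, its partner, ranged less, from 182.6 to 223.5 in controls and from 128.2 to 220.3 in sgCcnd1 (log2 fold change -0.30, limma adjusted p = 0.462). Col3a1 and Col5a2 are neighbours on chromosome 1, 24.62 kb apart on GRCm38.

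Basement membrane collagen IV underlies endothelium and ducts, and endothelial cells make it as well as stellate cells. Col4a1 was at 474.6, 515.4, 522.8 and 348.6 normalized counts in sgRosa26 and 553.5, 345.6, 329.9, 333.9 and 302.3 in sgCcnd1. Its highest value of all 9 was that of E in sgCcnd1, and the other 4 libraries of that group lay below all controls. The second chain, Col4a2, was at 318.5, 362.0, 386.7 and 230.2 normalized counts in sgRosa26 and 335.4, 227.4, 241.8, 223.9 and 210.0 in sgCcnd1, with the same 2 libraries, D and E, apart from the rest of their groups. The log2 fold change was -0.34 for Col4a1 (95% interval -0.71 to 0.04, limma adjusted p = 0.504) and -0.38 for Col4a2 (95% interval -0.74 to -0.02, limma adjusted p = 0.433). The RefSeq models of the 2 genes overlap by 85 bases, and whether strand was used in counting is not given in the sources used here. Fibrillar and basement membrane collagens thus had medians of -0.58 and -0.36, with intervals of single genes that overlap; the difference between the roles was not tested.

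**Figure D4:**
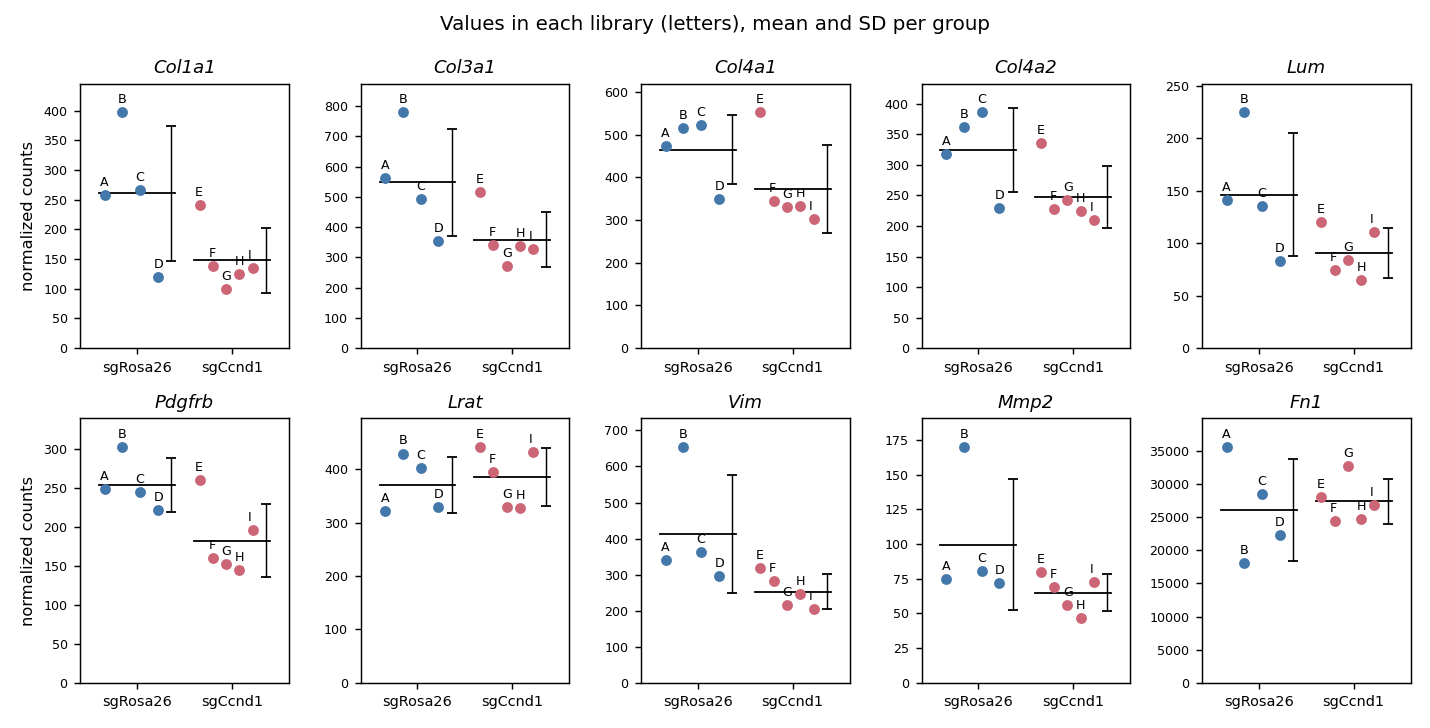
Normalized counts (y axis, from 0) of 10 genes in each library (points with letters; blue sgRosa26, red sgCcnd1), with the group mean as a line and the SD as a bar beside the points. For Col1a1, Col3a1, Col4a1 and Col4a2 library E stands above the rest of sgCcnd1 and D below the other controls, whereas the sgCcnd1 libraries of Fn1 lie within the control range and those of Lrat reach above it in E and I.

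Collagen VI forms beaded filaments beside the fibrils, and collagen XIV sits on the fibril surface. All 4 genes had lower values in sgCcnd1 and 1 of them, Col6a3, an unadjusted p under 0.05. Col6a3 was at 297.6, 386.6, 257.2 and 209.8 normalized counts in sgRosa26 and 282.1, 162.9, 167.4, 168.9 and 231.3 in sgCcnd1, with F, G and H below every control (log2 fold change -0.50, limma adjusted p = 0.382). Col6a2 had a log2 fold change of -0.40 and Col6a1 of -0.34, which lie 85.16 kb apart on chromosome 10. Without B these were -0.20 and -0.18. Col6a2 was at 127.9, 190.2, 119.2 and 85.5 normalized counts in sgRosa26 and 131.1, 106.5, 79.3, 67 and 102.2 in sgCcnd1, with G and H below all controls. Col6a1 ranged from 92.3 to 207.7 in controls and from 94 to 151.7 in sgCcnd1. Col14a1 had 515.7 to 784.5 normalized counts in controls and 508.8 to 859.2 in sgCcnd1 (log2 fold change -0.17, limma adjusted p = 0.725).

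Among the small leucine-rich proteoglycans, which coat fibrils and set their spacing, 2 of 3 had an unadjusted p under 0.05. Lum, for lumican, was at 141.4, 225.3, 135.2 and 83.5 normalized counts in sgRosa26 and 120.4, 74.3, 84.2, 65 and 110.7 in sgCcnd1. B was far above the other controls, and D was lower than E, I and G (log2 fold change -0.63, limma adjusted p = 0.395; -0.40 without B). Dcn, for decorin, was at 2903.0, 3034.6, 2530.4 and 1925.8 normalized counts in sgRosa26 and 2554.6, 2102.0, 1770.0, 1749.3 and 2561.7 in sgCcnd1, with G and H below all controls (log2 fold change -0.27, limma adjusted p = 0.537). Bgn, for biglycan, was at 1539.4, 1995.9, 1834.9 and 1212.0 normalized counts in sgRosa26 and 1651.2, 1178.1, 1022.1, 889.6 and 1351.1 in sgCcnd1, with F, G and H below all controls (log2 fold change -0.44, limma adjusted p = 0.4). Dcn and Lum lie 47.34 kb apart on chromosome 10.

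Matrix glycoproteins connect cells to the fibrils or modulate their contact. The exception among them was Fn1, for fibronectin, which hepatocytes secrete into plasma in large amounts. Fn1 was at 35589.4, 18013.6, 28454.7 and 22286.4 normalized counts in sgRosa26 and 28075.3, 24357.2, 32721.2, 24748.7 and 26809.6 in sgCcnd1. The 5 sgCcnd1 libraries lay within the range of the 4 controls, B was lowest and A highest (log2 fold change 0.11, 95% interval -0.28 to 0.49, limma adjusted p = 0.859). Per kilobase of exon Fn1 stood at 2232.4 normalized counts in sgRosa26, above Dcn with 445.1, Bgn with 269.8 and Mmp14 with 119.5. The other 38 genes were at under 100 per kilobase, 11 of them at under 10. Sparc, which binds collagen, ranged from 226.3 to 405.0 in controls and from 223.2 to 417.0 in sgCcnd1 (log2 fold change -0.34, limma adjusted p = 0.553).

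Thbs1, for thrombospondin 1, an activator of latent TGF-beta, was at 56.6, 64, 38.5 and 28.2 normalized counts in sgRosa26 and 43.5, 26.9, 23.5, 41 and 21.3 in sgCcnd1 (log2 fold change -0.56, limma adjusted p = 0.495). F, G and I lay below all controls. Thbs2 was at 57.8, 57.9, 54.4 and 44.7 normalized counts in sgRosa26 and 57.9, 29.5, 50.9, 34 and 34.1 in sgCcnd1 (log2 fold change -0.41, limma adjusted p = 0.496), with F, H and I below all controls and G and E not. Postn, for periostin, ranged from 69.9 to 115.6 in controls and from 47 to 99.3 in sgCcnd1 (log2 fold change -0.35, limma adjusted p = 0.562). None of the 5 glycoprotein genes had an unadjusted p under 0.05. Elastic fibre genes were few in reads. Eln, for elastin, was at 33.2, 68.4, 34.7 and 35 normalized counts in sgRosa26 and 36.6, 16.1, 48, 40 and 35.5 in sgCcnd1, where B and F stood at the ends of the range (log2 fold change -0.29, limma adjusted p = 0.754; -0.04 without B). Fbn1, the fibrillin scaffold, was at 65.2, 46.5, 45.1 and 31.1 normalized counts in sgRosa26 and 52.6, 28.6, 34.3, 25 and 42.6 in sgCcnd1 (log2 fold change -0.35, limma adjusted p = 0.629). Ltbp1, which tethers latent TGF-beta to the matrix, was at 91, 119.2, 99.5 and 68 normalized counts in sgRosa26 and 90.7, 68.9, 60.7, 62 and 85.2 in sgCcnd1 (log2 fold change -0.35, limma adjusted p = 0.504). Below all controls lay F and H for Fbn1, and G and H for Ltbp1.

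Of the 6 stellate cell genes, 5 had lower values in sgCcnd1 and 1, Lrat, a higher one, and none was called. Lrat, the enzyme that makes retinyl esters for vitamin A storage, was at 322.1, 429.5, 401.7 and 330.2 normalized counts in sgRosa26 and 442.2, 394.8, 329.9, 326.9 and 432.9 in sgCcnd1. E, F and I were near B and C, and G and H near A and D, and E and I lay above all controls. The log2 fold change was 0.05 (95% interval -0.22 to 0.33, limma adjusted p = 0.91). Reln, for reelin, a secreted protein used as a stellate cell marker, was at 875.4, 955.4, 773.4 and 637.1 normalized counts in sgRosa26 and 835.5, 601.6, 575.7, 630.7 and 696.8 in sgCcnd1, lower in F, G and H than in any control (log2 fold change -0.27, limma adjusted p = 0.479). Hgf, the growth factor that stellate cells send to hepatocytes, was at 72.5, 34.2, 45.1 and 32 normalized counts in sgRosa26 and 44.2, 26, 40.1, 33 and 39.7 in sgCcnd1, high in control A alone (log2 fold change -0.27, limma adjusted p = 0.711; -0.03 without A). Des, for the filament protein desmin, was at 65.2, 86.8, 81.7 and 59.2 normalized counts in sgRosa26 and 78.5, 62.7, 69.5, 52 and 51.1 in sgCcnd1, with H and I below all controls (log2 fold change -0.22, limma adjusted p = 0.66).

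The receptors for platelet-derived growth factor, through which stellate cells are driven to divide and migrate, had the lowest values relative to controls in this role. Pdgfrb was at 248.4, 303.3, 245.0 and 221.4 normalized counts in sgRosa26 and 260.0, 160.2, 152.7, 144.9 and 195.9 in sgCcnd1. In 4 of 5 sgCcnd1 libraries it was below all controls, with E above A, C and D. The means were 254.5 ± 34.6 in sgRosa26 (SD, n = 4) and 182.7 ± 47.4 in sgCcnd1 (SD, n = 5), and the difference was -0.50 on the log2 scale (95% interval -0.86 to -0.14, limma adjusted p = 0.333, exact two-sided permutation p = 0.0476). Pdgfra was at 143.9, 156.9, 152.0 and 112.7 normalized counts in sgRosa26 and 145.6, 88.6, 96.9, 69 and 112.1 in sgCcnd1, with the same 4 libraries below all controls (log2 fold change -0.49, limma adjusted p = 0.375). The interval of Lrat overlaps those of both receptors, and the difference between these genes was not tested.

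Of the contractile and cytoskeletal genes, Vim, for vimentin, had the smallest p of the 40 genes; leukocytes, endothelium and fibroblasts make it too. Vim was at 339.4, 654.8, 362.3 and 297.2 normalized counts in sgRosa26 and 318.7, 281.1, 215.4, 246.9 and 204.4 in sgCcnd1. All sgCcnd1 libraries but E were below all controls, and E was below all controls but D (log2 fold change -0.65, 95% interval -1.10 to -0.20, limma adjusted p = 0.31, exact two-sided permutation p = 0.0238). Without B it was -0.41. Acta2, the smooth muscle actin of activated stellate cells and of vessel walls, was at 62.7, 74.5, 60.1 and 33 normalized counts in sgRosa26 and 60.2, 40.3, 28.4, 51 and 31.2 in sgCcnd1, where D was near the low sgCcnd1 libraries and E near the other controls (log2 fold change -0.43, limma adjusted p = 0.571). Tagln, an actin-binding protein of the same cells, ranged from 98.1 to 163.0 in controls and from 90.8 to 131.9 in sgCcnd1 (log2 fold change -0.11, limma adjusted p = 0.832).

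Remodelling enzymes and their inhibitors had lower values in sgCcnd1 for each of the 4 genes tested, with intervals that overlap, and none was called. Mmp2, a gelatinase, was at 75, 170.0, 80.7 and 71.9 normalized counts in sgRosa26 and 80, 68.9, 55.8, 47 and 72.4 in sgCcnd1. B held more than any other library, and without it the log2 fold change went from -0.54 to -0.25 (limma adjusted p = 0.455 with all libraries). Mmp14, the membrane enzyme that activates the Mmp2 protein, was at 908.6, 649.5, 604.4 and 686.6 normalized counts in sgRosa26 and 689.9, 621.3, 624.6, 556.8 and 651.4 in sgCcnd1, with A alone high (log2 fold change -0.17, 95% interval -0.42 to 0.09, limma adjusted p = 0.624; -0.04 without A). Timp2, an inhibitor that also takes part in this activation, was at 410.7, 499.6, 348.2 and 258.3 normalized counts in sgRosa26 and 318.7, 252.5, 257.5, 211.9 and 312.2 in sgCcnd1, with F, G and H below all controls (log2 fold change -0.46, limma adjusted p = 0.375). Timp3, an inhibitor bound to the matrix, was at 472.1, 600.4, 558.4 and 414.7 normalized counts in sgRosa26 and 639.6, 415.4, 416.1, 402.8 and 560.6 in sgCcnd1, highest in E and lowest in H (log2 fold change -0.08, limma adjusted p = 0.883).

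Timp1, the inhibitor known to rise in fibrosis, was too low to be tested. It was at 7.38, 13.1, 4.69 and 4.86 normalized counts in sgRosa26 and 4.57, 4.48, 1.96, 6 and 1.42 in sgCcnd1, a handful of reads per library. Lox, which joins collagen and elastin chains, was the other gene under the minimum, at 12.3, 11.4, 4.69 and 2.91 normalized counts in sgRosa26 and 6.86, 3.58, 6.85, 3 and 4.26 in sgCcnd1. For both, the ranges of the groups overlapped. Loxl1, its relative needed for elastic fibres, was at 40.6, 65.7, 49.7 and 28.2 normalized counts in sgRosa26 and 45, 19.7, 31.3, 29 and 41.2 in sgCcnd1 (log2 fold change -0.45, limma adjusted p = 0.567). Loxl2, a relative that acts on collagen IV, was at 54.1, 82.4, 51.6 and 36.9 normalized counts in sgRosa26 and 48.8, 38.5, 38.2, 55 and 51.1 in sgCcnd1, with B highest and D lowest of the 9 (log2 fold change -0.23, limma adjusted p = 0.713; -0.03 without B). Of the TGF-beta ligands, Tgfb1, the main isoform of leukocytes and other stromal cells, was at 140.2, 154.3, 146.4 and 134.0 normalized counts in sgRosa26 and 183.7, 133.4, 98.9, 116.0 and 133.4 in sgCcnd1. It was highest in E, and the other 4 sgCcnd1 libraries lay below all controls (log2 fold change -0.14, 95% interval -0.48 to 0.20, limma adjusted p = 0.766; -0.26 without E and -0.04 without G). Tgfb2 was at 13.5, 21.9, 16.9 and 9.71 normalized counts in sgRosa26 and 14.5, 9.85, 13.7, 15 and 7.1 in sgCcnd1 and Tgfb3 at 34.4, 35.1, 20.6 and 15.5 normalized counts in sgRosa26 and 14.5, 18.8, 25.5, 12 and 15.6 in sgCcnd1. Both had few reads and a wide error (log2 fold change -0.33, SE 0.31, and -0.55, SE 0.29; limma adjusted p = 0.71 and 0.512).

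Another 129 genes of the same pathways, in 8 lists, were read in the same fit, 109 of them tested. Limma called 0, and the median log2 fold change was -0.18. At an unadjusted p under 0.05, 17 were lower (15.6%, beside 5.74% of all genes tested) and 3 of 109 higher (beside 5.22%). In 7 genes (6.42%) the sgCcnd1 libraries all lay below the controls, beside 1.97% of all genes tested. DESeq2 called 4, all lower, among them Smad6, Efemp1 and Mmp12. The matricellular and elastic fibre list was lower in 15 of 15 genes tested (median -0.36, 4 with an unadjusted p under 0.05). Efemp1, for fibulin 3, was at 279.1, 312.0, 260.0 and 249.6 normalized counts in sgRosa26 and 202.8, 203.2, 169.4, 159.9 and 221.4 in sgCcnd1, and Fmod, for the proteoglycan fibromodulin, at 38.1, 47.3, 26.3 and 32 normalized counts in sgRosa26 and 19.1, 17.9, 19.6, 17 and 18.5 in sgCcnd1. Both had every sgCcnd1 library below every control, library E included, unlike any of the 40 genes above (log2 fold change -0.53 and -0.90, limma adjusted p = 0.227 for both; DESeq2 adjusted p = 0.0172 and 0.0522).

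In the TGF-beta list 17 of 24 genes were lower and 7 higher (median -0.17). Smad6, an inhibitory SMAD that is best known for damping BMP signals, was at 174.6, 185.8, 163.3 and 168.0 normalized counts in sgRosa26 and 136.5, 103.8, 98.9, 121.9 and 85.2 in sgCcnd1 (log2 fold change -0.68, limma adjusted p = 0.225, DESeq2 adjusted p = 0.00766). Ski, a repressor of SMAD-driven transcription, was at 999.6, 756.4, 695.5 and 768.2 normalized counts in sgRosa26 and 629.7, 624.0, 674.5, 636.7 and 620.2 in sgCcnd1 (log2 fold change -0.32, limma adjusted p = 0.306). In both genes all sgCcnd1 libraries were below all controls. Other stellate cell genes were lower in 14 of 17 (median -0.13). Lhx2, a transcription factor that holds stellate cells quiescent, was at 72.5, 98.2, 82.6 and 75.8 normalized counts in sgRosa26 and 64, 66.2, 47, 48 and 65.3 in sgCcnd1, with all sgCcnd1 libraries below all controls (log2 fold change -0.50, limma adjusted p = 0.306).

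Remaining lists had medians nearer to 0 or few genes. Laminins, nidogens and other basement membrane genes were lower in 13 of 20 (median -0.07), with the smallest p for Lama5, a laminin chain (log2 fold change -0.54, limma adjusted p = 0.334). Collagen processing enzymes and chaperones were lower in 11 of 18 (median -0.04), with Adamts2, which trims procollagen, at -0.63 (limma adjusted p = 0.338). The 4 other collagens tested, Col5a3 and Col27a1 among them, had a median of -0.02. Of the other metalloproteinases 6 of 7 were lower (median -0.22), among them Mmp12, the macrophage elastase, at 61.5, 77.1, 46.9 and 18.5 normalized counts in sgRosa26 and 20.6, 23.3, 14.7, 21 and 25.5 in sgCcnd1. For it A, B and C were above every other library and D was not (log2 fold change -1.09, limma adjusted p = 0.307, DESeq2 adjusted p = 0.0419). Among PDGF ligands 3 of 4 were lower, with Pdgfc at -0.41 on the log2 scale (limma adjusted p = 0.334).

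Markers of other cells in the lobe were summed per library. Sinusoidal endothelial markers, 8 of 10 lower, summed to 3339.9 to 4671.3 normalized counts in controls and 3479.5 to 5045.9 in sgCcnd1. Their lowest sum was that of D and their highest that of E, the same libraries that stood apart in the collagens. Mesothelial markers, 4 of 4 tested lower, summed to 85.4 to 316.4 in controls and 38.9 to 107.9 in sgCcnd1, a mean of 48.3% of controls, with B highest and E lowest. T, NK and B cell markers, 8 of 8 tested lower, summed to 281.6 to 598.7 and 191.6 to 497.0, a mean of 71.1% of controls, with B highest. Cholangiocyte markers, 3 of 5 tested lower, summed to 931.1 to 1908.2 and 752.7 to 1169.4 (77.6% of controls), again with B highest. Spp1 made up most of that sum, at 1019.2 in controls and 792.4 in sgCcnd1. Epcam was at 99.4% of controls, Krt19 at 97.8%, Krt7 at 86.7% and Sox9 at 71.1%. Smooth muscle markers, 2 of 2 tested lower, summed to 166.1 to 247.2 and 132.9 to 211.9 (79.5% of controls), and Cnn1 and Actg2 among them had few or 0 reads in each library. Smtn gave most of that sum, at 149.1 in controls and 110.1 in sgCcnd1, while Myh11 was at 97.8% of controls. Kupffer cell and macrophage markers, 5 of 8 lower, had a mean in sgCcnd1 of 93.9% of controls. Single markers ran from 61.3% (Cd68) to 173.9% of controls (Marco, highest in library H), and the next lowest after Cd68 was Vsig4 at 84.5%. Among them Cd68 was at 131.6, 184.1, 134.2 and 163.2 normalized counts in sgRosa26 and 121.2, 108.3, 74.4, 82 and 83.7 in sgCcnd1, every sgCcnd1 library below every control (61.3% of controls, log2 fold change -0.71, limma adjusted p = 0.245, DESeq2 adjusted p = 0.0282). Hepatocyte markers, 4 of 6 lower, were at 98.1% of controls. Portal fibroblast markers, 4 of 4 tested lower, summed to 96.5% of controls, but most of that sum was Gas6, at 1184.5 in controls and 1174.5 in sgCcnd1. Thy1 was at 57.4% of controls, Cd34 at 65.6% and Entpd2 at 92.1% (limma adjusted p = 0.487, 0.445 and 0.73), and Clec3b was at or near 0 in every library. The part of these cells in the values of the matrix and stellate cell genes was not tested.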

How the data were processed

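Poly(A) RNA of liver lobe from 9 mice was sequenced. The deposited table gives a never-negative signal, named normalized counts, for 27179 Entrez genes. The submitters' processing notes list Trim Galore 0.6.7, HISAT2 2.2.1, featureCounts 2.0.3, DESeq2 2.11.40.8 and the builds mm10 and GRCm38, with no roles. Whether strand was used is not given in the sources used here, so reads of overlapping genes cannot be told apart. In each library 100% of the deposited signal values were whole multiples, within 0.01, of a constant taken as 1 read, from which reads were recovered. For library H that constant is so near 1 that recovery and rounding are hard to separate. Columns name a guide and an animal and were matched to a group only.

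Log2(normalized count + 1) was compared for the 12993 genes averaging 10 or more with limma 3.58.1 in R 4.3.3 (eBayes with trend, two-sided, no covariates), adjusted over all genes tested by Benjamini-Hochberg at 0.05. The added 1 shrinks fold changes of low genes. Exact permutation tests used all splits into 4 and 5, with a smallest p of 0.00794. The labels do not say how animals were caged or sampled, and p-values weigh a difference between groups against the spread between these animals. Alternatives were pseudocounts of 0.1 and 10, no filter, a minimum mean of 100, quantile and 75th percentile scaling, robust and weighted fits, edgeR 4.0.16 and DESeq2 1.42.0 on recovered reads, and leaving out each library. Levels per kilobase used merged exons of GENCODE M21. Values in every library are given for a fixed set of members and for the 2 with the smallest p in each role, and for a few more; of each pathway list up to 2 genes were named by p, besides Col27a1, and of marker lists any gene. A further gene is not reported here. Members and lists were chosen with earlier results of these data known. The procedures were tested on simulated counts.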

Additional observations from a re-analysis of the deposited data

Results flagged for a closer look

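In 102 groups of values (the 42 genes, Ccnd1 and 8 marker sums, in either group of mice), 7 had a library far from the rest of its group, where chance gives about 5.1. Library E of sgCcnd1 accounts for 5 of them. It had 241.7 normalized counts of Col1a1 of which the other sgCcnd1 libraries had 99.9 to 137.9, and 515.3 of Col3a1 against 273.1 to 341.1. Col4a1 was at 553.5 in E against 302.3 to 345.6, Col4a2 at 335.4 against 210.0 to 241.8, and Sparc at 417.0 against 223.2 to 246.9. Control B accounts for the other 2, with 68.4 normalized counts of Eln against 33.2 to 35 in the other controls and 170.0 of Mmp2 against 71.9 to 80.7.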

How the results depend on the processing

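No paired analysis was possible because column names hold an animal number that no label repeats. In 20 alternatives, 0 of the 42 genes were called. Direction was kept in 782 of 785 pairs of a tested gene and an alternative; the 3 reversals were Fn1 (-0.06) and Tagln (0.01) without B and Lrat (-0.01) without A, where fewer samples enter. With a library left out Fn1 ranged from -0.06 to 0.27, Lrat from -0.01 to 0.13 and Tagln from -0.23 to 0.01. The count of the 40 genes lower at an unadjusted p under 0.05, 11, was 10 to 13 in the 11 alternatives that kept all libraries and 2 to 25 with 1 left out. Those with a fold change below 0, 38, were 23 of 25 with a minimum mean of 100, where fewer genes are tested. The median of the 40 stayed between -0.39 and -0.33 in the alternatives that kept all libraries.

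Of other pathway genes, DESeq2 called 4. Those lower at an unadjusted p under 0.05, 17, were 9 with a minimum mean of 100 and 9 to 30 with a library left out; those higher, 3, were 1 with quantile or 75th percentile scaling and 1 to 3 with a library left out. Of all genes, 1 lower and 0 higher by limma, 2 were lower with quantile scaling, 0 to 2 with a library left out, and 70 lower and 34 higher with DESeq2; the cause was not tested. The Ccnd1 check of the labels ranged from -1.11 to -0.96 with a library left out and lost its call without B, D, F, H or I (limma adjusted p from 0.0558 to 0.0857). The minimum mean of 10 kept Timp1 and Lox out of the test; without that filter they were tested and not called. Of 2 collagens near 0, Col5a3 (0.02) was -0.03 with quantile scaling, edgeR with TMM or RLE and DESeq2, -0.01 with 75th percentile scaling, -0.02 with array weights and -0.19 to 0.15 with a library left out (-0.03 without H), and Col27a1 (-0.00) was -0.17 to 0.07 with a library left out.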
